A study of Mus musculus with 44 samples.

Results

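The Hedgehog pathway genes examined here are Shh, Ihh, Ptch1, Hhip, Smo, Gli1, Gli2 and Gli3. They were taken by gene name from the gene tables, which gave 8 of 32287 gene identifiers, each with 1 identifier, measured in 44 mouse RNA libraries of 12 groups. The study labelled the embryonic and the extraembryonic lineage with different fluorescent proteins, by aggregating mCherry-expressing morulae with GFP-expressing embryonic stem cells, and asked how far extraembryonic cells in the gut come to match their embryonic neighbours. Every GFP library therefore descends from a single male stem cell line and every mCherry library from host embryos of either sex, so lineage origin, genetic background and cell source cannot be told apart in any comparison between the lineages.

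At E6.5 the groups were Epi (epiblast, GFP), exEndo 1 (distal extraembryonic endoderm) and exEndo 2 (proximal extraembryonic endoderm), both mCherry, dissected by hand from single embryos (n = 4 each). At E9.5 they were emMidgut and emHindgut (EPCAM-positive, GFP-positive cells that also carried low mCherry), exMidgut and exHindgut (EPCAM-positive, mCherry-positive cells) and YsEndo (EPCAM-positive, mCherry-positive yolk sac endoderm), each sorted as 40 to 50 cells from 4 pooled embryos or yolk sacs (n = 4 each). The 8 exMidgut and exHindgut libraries together are called exGut, and the 8 emMidgut and emHindgut libraries emGut. At E13.5 they were emSI and emColon (EPCAM-positive, GFP-positive cells, labelled wild type, of small intestine and colon) and exSI and exColon (EPCAM-positive, mCherry-positive cells of the same organs, which carried a Trp53 knockout made with Cas9 in the zygote). By the study's methods the wild-type GFP cells were sorted as the control from embryos whose extraembryonic lineage lacked Trp53, and not from wholly wild-type embryos. These libraries came from single embryos (n = 3 each). At E13.5 origin, background and Trp53 genotype therefore change together. All embryos were carried in CD1 females.

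Shh, Ihh and their relative Dhh are secreted lipid-modified ligands. They bind Ptch1, a membrane receptor that otherwise holds the transducer Smo inactive, and active Smo turns the Gli zinc finger factors towards activation of target genes. Ptch1, Hhip (a membrane protein that binds and sequesters the ligands) and Gli1 are themselves standard targets of the pathway, Gli2 is the main activator, and Gli3 acts largely as a repressor when no ligand is present. In the embryonic gut the epithelium secretes Shh and Ihh and the surrounding mesenchyme is the main responding tissue, while in the early embryo Ihh is the ligand of visceral and yolk sac endoderm.

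The values are TPM (an abundance scaled to transcript length and to the library total), so levels can be set beside each other between genes. The most frequent ratio of coverage to FPKM, another length-scaled abundance, gave 3.528 to 12.04 Gb of aligned bases per library (median 6.796). Between 10382 and 13596 genes lay above 1 TPM. Without read counts the counting error of a single TPM is unknown, and a value of 0 is only a gene listed at 0. In the labels, Epi is named as epiblast in one field and as embryonic visceral endoderm in the extraction text. The summed TPM of 5 epiblast markers was 2547 to 4238 in Epi, and that of 7 visceral and yolk sac endoderm markers was 2.992 to 5.354, against at least 4817 in exEndo 1 and exEndo 2, so the values go with epiblast. All gut libraries held gut endoderm markers (summed TPM of 7 genes 718 to 2005), above the 376.5 to 566.6 TPM of the E6.5 groups and YsEndo. The visceral and yolk sac markers were also present in exMidgut (7079 to 16950 TPM) and lower in emMidgut (1459 to 3182), exHindgut (114.9 to 686.1) and emHindgut (26.71 to 86.75). At E13.5 these markers were 1690 to 2243 TPM in emSI, 2512 to 4927 in emColon, 4713 to 7644 in exSI and 3010 to 8256 in exColon.

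The upstream sequences of Ihh, the ligand present in both endoderm and gut, and of Ptch1, the receptor found in every library, are shown to set their motif content side by side. Promoter sequence was held for 6 of the 8 genes (RefSeq, GRCm38.p6); Shh and Gli1 were not matched. Each run is the 250 bases before the start site, with any match to CCACCC, the core of the GLI motif, on either strand (CCACCC or GGGTGG) in capitals. The Ihh sequence lies at chr1:74951673-74951922 and the Ptch1 sequence at chr13:63565736-63565985, both on the minus strand. The RefSeq start of Ptch1 used here lies 7863 bases inside the gene as the deposited tables bound it.
Ihh: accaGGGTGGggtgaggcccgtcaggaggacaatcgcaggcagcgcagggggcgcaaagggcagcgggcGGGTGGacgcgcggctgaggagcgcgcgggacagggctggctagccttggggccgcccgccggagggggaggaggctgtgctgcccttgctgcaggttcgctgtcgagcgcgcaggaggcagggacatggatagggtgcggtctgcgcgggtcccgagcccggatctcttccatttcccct
Ptch1: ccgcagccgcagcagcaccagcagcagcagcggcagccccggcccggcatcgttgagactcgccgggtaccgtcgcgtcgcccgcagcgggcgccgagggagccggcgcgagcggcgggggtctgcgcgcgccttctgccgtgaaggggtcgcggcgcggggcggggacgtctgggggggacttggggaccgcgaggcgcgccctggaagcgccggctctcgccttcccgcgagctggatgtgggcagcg
The full 9-base GLI motif GACCACCCA was in none of the 6 windows, and in 0.225% of 32851 mouse promoters of this length. The core was in 5 of the 6 windows (2 matches in Ihh, none in Ptch1) and in 28.1% of all promoters, and the FOXA motif TGTTTAC (both strands) in none of the 6 and in 3.17% of all. A match to these letters is a description of the sequence only.

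Shh was close to absent at E6.5 and was the more abundant ligand RNA in all E9.5 gut libraries. At E13.5 Ihh exceeded it in exSI replicate 1 and emColon replicate 2. Its gene lies at chr5:28456815-28467256 on the minus strand of mm10. No E6.5 library exceeded 0.717 TPM. Within E6.5 the exEndo 1 libraries, at 0.717, 0.273, 0.104 and 0.119 TPM, all lay above the exEndo 2 libraries (highest 0.0941 TPM), a difference at levels too low to enter the test. At E9.5 Shh was 131, 155, 161 and 138 TPM in the emMidgut libraries. It was 136, 97.6, 66.8 and 120 TPM in the exMidgut libraries. The values of the midgut groups overlap, the lowest being exMidgut replicate 3. In the hindgut Shh was 50.2, 45.4, 86.6 and 53.9 TPM in emHindgut and 16.7, 66.9, 60.2 and 51.3 TPM in exHindgut, with exHindgut replicate 1 the lowest of all gut libraries. YsEndo had 0.156 TPM in replicate 1 and was listed at 0 in the other 3 libraries.

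Ihh (chr1:74945315-74951672, minus strand) was the ligand RNA of the extraembryonic endoderm. At E6.5 it was 3.77, 6.87, 10.6 and 6.22 TPM in exEndo 1 and 15.9, 18.5, 22.0 and 19.2 TPM in exEndo 2. All 8 libraries lay above the Epi libraries, which reached at most 0.0797 TPM, and exEndo 1 lay wholly below exEndo 2. Ihh stayed present in YsEndo at E9.5, at 10.7, 10.6, 12.75 and 12.2 TPM. In the gut it was 36.6, 21.4, 39.9 and 24.9 TPM in emMidgut and 29.5, 25.4, 51.3 and 52.1 TPM in exMidgut. In emHindgut it was 2.39, 2.31, 7.845 and 4.11 TPM, the lowest of the gut groups. In exHindgut it was 13.1, 19.2, 20.6 and 4.19 TPM, so that 3 of its 4 libraries lay above every emHindgut library and replicate 4 among them.

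**Figure D1:**
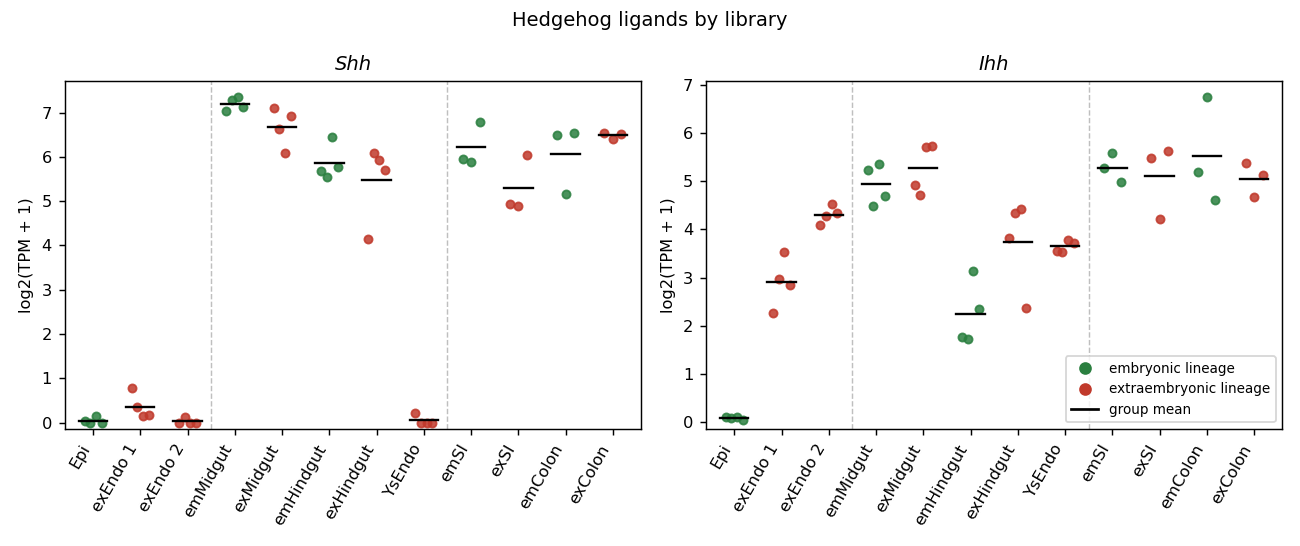
Shh and Ihh in each library, as log2(TPM + 1) on the y axis, with the 12 groups on the x axis in order of stage (dashed lines separate E6.5, E9.5 and E13.5). Points are libraries, green for the embryonic and red for the extraembryonic lineage, and bars are group means. Shh is near 0 at E6.5 and in YsEndo and high in all gut groups, whereas Ihh is present in every group but Epi.

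Between exEndo 1 and Epi the difference in mean log2(TPM + 1) of Ihh was 2.82, and between exEndo 2 and Epi it was 4.22. Ihh passed the filter on low values there only through the extraembryonic libraries, so a difference had to appear and no p is given. The same is done below for every gene that had no library above 1 TPM on one side of a comparison. Differences on this scale understate the change of genes near 0. Of the 8 genes, 5 passed the filter on low values in each of these comparisons and 4 were called in each, where a call needs an adjusted p under 0.05 (limma, Benjamini-Hochberg) and a difference beyond 1 on the log2 scale. Of these 4 calls, 2 against exEndo 1 (Ihh and Gli2) and 3 against exEndo 2 (Ihh, Gli2 and Gli3) were of genes that entered through 1 side alone. Among all genes tested, 33.4% were called between exEndo 1 and Epi and 35.8% between exEndo 2 and Epi, and these comparisons share the Epi libraries. The exEndo 1 libraries also held 368 to 524.5 TPM of the epiblast markers, against 173.7 to 227.8 in exEndo 2, and their part in the result was not tested. Ihh was lower in exEndo 1 than in exEndo 2 with a difference of -1.40 (SE 0.242, adjusted p = 0.00313), the single call among 3 of the 8 genes tested there (6.41% of all genes).

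At E9.5 the ligands followed the region of the gut. In emHindgut against emMidgut, Shh fell by 1.34 on the log2 scale (SE 0.180, adjusted p = 7.33e-05) and Ihh fell by 2.696 (SE 0.352, adjusted p = 5.54e-05). In exHindgut against exMidgut, Shh fell by 1.21 (SE 0.359, adjusted p = 0.0310) and Ihh fell by 1.53 (SE 0.418, adjusted p = 0.0211). These were 2 calls among 7 of the 8 genes tested in the embryonic lineage (13.9% of all genes) and 2 of 4 calls among 6 tested in the extraembryonic lineage (11.3% of all genes). For Shh the exHindgut and exMidgut values touch (highest exHindgut 66.9, lowest exMidgut 66.8 TPM), and the call of Shh in the extraembryonic lineage was lost without exHindgut replicate 1 or without exMidgut replicate 1, 2 or 4 (adjusted p up to 0.0779). That of Ihh was lost without exMidgut replicate 3 or 4 (adjusted p up to 0.0627), and neither of these 2 was called when all genes above 0 were tested. The hindgut libraries also held more RNA of the notochord and tail bud list (T, Noto and Chrd, summed TPM 156.3 to 324.3, against 0.431 to 16.11 in the midgut). The midgut libraries held more RNA of 3 germ cell markers (summed TPM 56.14 to 299.1, against 7.067 to 22.28 in the hindgut). The part of either list in these differences was not tested.

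Neither ligand was called between the lineages within a region. By the study's methods, the emGut cells had taken up extraembryonic remnants and can hold some extraembryonic transcripts. This would weaken a difference between the lineages, and its part here was not tested. Shh differed by -0.52 in the midgut (SE 0.194, adjusted p = 0.185) and by -0.39 in the hindgut (SE 0.346, adjusted p = 0.602). The summed TPM of 7 neural markers was 14.87 to 61.37 in emMidgut and 0.0339 to 4.784 in exMidgut, and their part in the midgut values was not tested. Ihh differed by 0.33 in the midgut (SE 0.286, adjusted p = 0.628) and by 1.495 in the hindgut (SE 0.468, adjusted p = 0.0859). Without exHindgut replicate 4, the low library, the hindgut difference of Ihh was 1.95 and it was called (adjusted p = 0.0151). Over all 8 genes no call was made between exGut and emGut (7 tested, 2.35% of all genes called), between exMidgut and emMidgut (6 tested, 2.58%), between exHindgut and emHindgut (7 tested, 3.07%) or for the interaction of origin with region (7 tested, 0.0965%). Before adjustment, limma gave a value under 0.05 for none of them in exGut against emGut or in the interaction, for Shh in the midgut, and for Ihh and Ptch1 in the hindgut. The last was a Ptch1 difference of -0.52 (SE 0.192, adjusted p = 0.142). The median difference of the tested members between exGut and emGut was -0.33, beside -0.03 over all genes tested. Adding a term for gut region gave 587 calls over all genes between exGut and emGut in place of 316, with none of the 8 among them.

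The share of Shh in the summed Shh and Ihh TPM was 78.2 to 87.9% in emMidgut (median 82.4) and 56.6 to 82.2% in exMidgut (median 74.6). It was 91.7 to 95.5% in emHindgut (median 94.0) and 55.96 to 92.5% in exHindgut (median 76.1). The lineages overlap in each region. In exEndo 2 the share did not exceed 0.507% and in YsEndo 1.44%, with a range of 0.969 to 15.98% in exEndo 1.

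**Figure D2:**
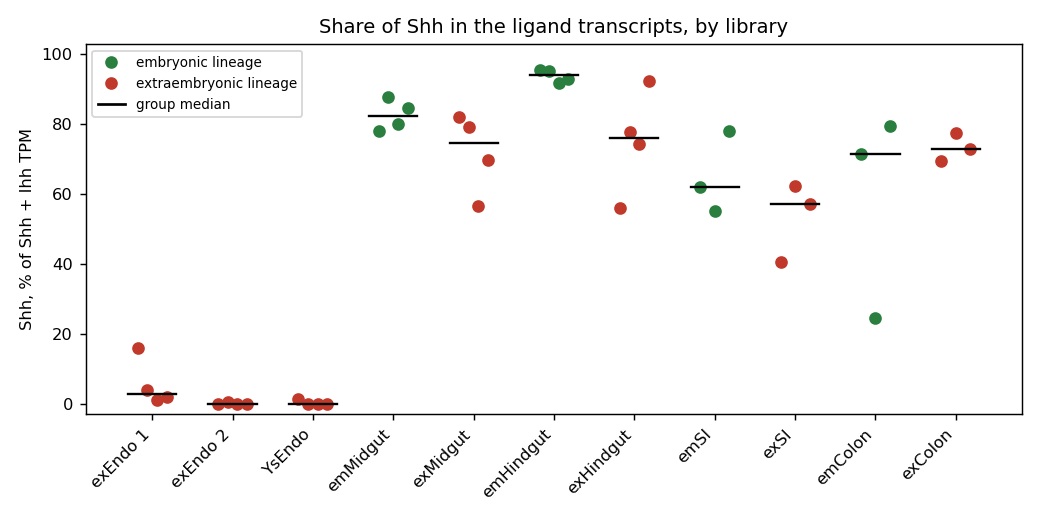
Share of Shh in the summed Shh and Ihh TPM (y axis, %) in each library of 11 groups (x axis; Epi is left out because its summed ligand TPM is at most 0.180). Points are libraries, coloured by lineage, and bars are group medians. The share is at most 15.98% in exEndo 1, exEndo 2 and YsEndo and at least 24.6% in every gut library.

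The gut and the yolk sac endoderm of the extraembryonic lineage had unlike levels of Shh, while a difference in Ihh was not called with both gut regions pooled. All 8 exGut libraries held more Shh than any YsEndo library, with a difference of 6.02. Shh entered this comparison only through exGut. For Ihh the difference was 0.86 (SE 0.485, adjusted p = 0.135), and it was called only without exHindgut replicate 4 (1.17, adjusted p = 0.00795) among the 12 fits that leave out a library. All exMidgut libraries (25.43 to 52.11 TPM) lay above every YsEndo library (10.62 to 12.75 TPM), while exHindgut (4.186 to 20.61 TPM) overlapped with YsEndo. The fit had no term for region, so the missing call does not show that Ihh was alike in gut and yolk sac. Of 6 genes tested here, 5 were called, all higher in exGut, beside 42.4% of all genes, and 3 of the 5 (Shh, Gli1 and Gli3) entered through exGut alone. The median difference of all genes tested was 0.59 in the same direction and fell to 0.08 with median-ratio rescaling, under which the same 5 genes were called. That rescaling moved the calls over all genes from 4138 higher and 1285 lower to 2719 higher and 2244 lower.

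At E13.5 Shh was 61.0, 58.2 and 110 TPM in emSI and 29.8, 28.9 and 64.7 TPM in exSI. It was 89.0, 34.65 and 92.2 TPM in emColon and 92.4, 83.5 and 90.5 TPM in exColon. The exColon libraries lay above all exSI libraries, with a difference of 1.19 that was not called (SE 0.387, adjusted p = 0.253). Ihh was 37.5, 47.0 and 30.8 TPM in emSI, 43.7, 17.55 and 48.6 TPM in exSI, 35.3, 106 and 23.6 TPM in emColon and 40.3, 24.4 and 33.8 TPM in exColon. These 4 groups overlap, and emColon replicate 2 combined the highest Ihh with the lowest Shh of its group. The share of Shh was 24.6 to 79.6% in emColon, 69.6 to 77.4% in exColon, 55.3 to 78.1% in emSI and 40.5 to 62.2% in exSI.

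No member was called in any of the 5 comparisons at E13.5, each with 5 of the 8 genes tested. The shares of all genes called were also small: 0.625% for the extraembryonic against the embryonic lineage over both organs, 0.269% for exColon against emColon, 0.738% for exSI against emSI, 0.472% for emColon against emSI and 0.693% for exColon against exSI. Before adjustment, limma gave a value under 0.05 for Shh and Ptch1 in exSI against emSI, for Ptch1 in emColon against emSI and for Shh in exColon against exSI. Leaving out emSI replicates 1 and 2, the libraries with mesenchyme markers described below, leaves 1 emSI library. Such a fit cannot show whether a difference from emSI depends on them.

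Mean levels of both ligands were higher in emGut than in Epi and in exGut than in exEndo 1. Between emGut and Epi the difference was 6.48 for Shh and 3.51 for Ihh, and between exGut and exEndo 1 it was 5.72 for Shh, all of genes that entered only through the gut libraries. Ihh rose from exEndo 1 to exGut by 1.60 (SE 0.508, adjusted p = 0.0176), and the call of Ihh was lost without exEndo 1 replicate 1 (adjusted p = 0.0632). Its values overlapped, at 4.186 to 52.11 TPM in exGut and 3.769 to 10.62 TPM in exEndo 1. The exEndo 2 values, 15.94 to 22.01 TPM, lay within the exGut range. Of all genes 29.7% were called between emGut and Epi (4 of the 8 genes, of which Shh, Ihh and Gli2 entered through 1 side alone) and 30.3% between exGut and exEndo 1 (5 of 6 tested, of which Shh and Gli1 entered through exGut alone). Between emSI and emMidgut (16.8% of all genes called) Shh was lower with a difference of -0.99 (adjusted p = 0.0106), just short of the fold threshold, and every emSI value lay below every emMidgut value. Between emColon and emHindgut (20.7% of all genes called) Ihh rose by 3.27 (SE 0.603, adjusted p = 0.00525) while Shh differed by 0.20 (adjusted p = 0.718). Between YsEndo and exEndo 2 (29.6% of all genes called), Ihh was lower in every YsEndo library, with a difference of -0.66 (adjusted p = 0.00208), which is within the fold threshold. The median difference of all genes tested there was -0.41, and -0.03 with median-ratio rescaling. These comparisons join stages with dissected tissue at E6.5, sorted pools at E9.5 and sorted single embryos at E13.5, so stage and collection cannot be told apart.

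Ptch1, the receptor and a target of the pathway (chr13:63508328-63573598, minus strand), was above 1 TPM in all 44 libraries. At E6.5 it was 21.6, 12.9, 10.4 and 19.7 TPM in Epi, 17.6, 15.4, 14.3 and 11.8 TPM in exEndo 1 and 19.8, 15.4, 7.38 and 8.72 TPM in exEndo 2, and these groups overlap (adjusted p = 0.781 and 0.329 for exEndo 1 and exEndo 2 against Epi). It was highest in the hindgut, at 58.5, 47.5, 44.0 and 62.6 TPM in emHindgut and 30.9, 49.2, 37.5 and 30.3 TPM in exHindgut. In emMidgut it was 26.4, 35.1, 21.8 and 24.5 TPM. The exMidgut libraries were spread, with replicates 1 and 4 at 37.2 and 38.7 TPM and replicates 2 and 3 at 14.9 and 15.7 TPM. YsEndo was the lowest of the E6.5 and E9.5 groups, at 4.08, 3.38, 5.91 and 3.15 TPM.

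In emHindgut against emMidgut the Ptch1 values did not overlap and differed by 0.96 (SE 0.195, adjusted p = 0.00212), within the fold threshold. The difference passed the threshold with quantile normalization (1.02). In exHindgut against exMidgut it was 0.57 (SE 0.324, adjusted p = 0.267). Ptch1 was higher in exGut than in YsEndo by 2.61 (SE 0.309, adjusted p = 5.03e-06), and lower in YsEndo than in exEndo 2 with a difference of -1.36 (SE 0.286, adjusted p = 0.00101). The latter was not called with quantile normalization, and the median difference of all genes tested there was -0.41. Ptch1 was higher in emGut than in Epi by 1.22 (SE 0.296, adjusted p = 0.00344), a difference of 0.89 with median-ratio rescaling and 0.79 with quantile normalization, within the fold threshold in both.

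At E13.5 Ptch1 was 33.2, 17.2 and 19.4 TPM in emSI and 3.12, 8.09 and 7.125 TPM in exSI, with no overlap (-1.79, SE 0.581, adjusted p = 0.266). It was 5.00, 2.30 and 16.5 TPM in emColon and 7.35, 19.7 and 15.3 TPM in exColon. Against emHindgut, emColon was lower with a difference of -2.93 (SE 0.527, adjusted p = 0.00468), with every emColon value below every emHindgut value, while emSI overlapped with emMidgut (-0.24, adjusted p = 0.613).

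Smo, the transducer (chr6:29735503-29761365, plus strand), was likewise found in every library, and its lowest level was in YsEndo. It was 18.7, 30.2, 31.6 and 37.3 TPM in Epi, 10.95 to 15.25 TPM in exEndo 1 and 10.2 to 12.8 TPM in exEndo 2. The extraembryonic libraries all lay below Epi, with a difference of -1.11 for exEndo 1 (SE 0.207, adjusted p = 0.000661) and -1.19 for exEndo 2 (SE 0.201, adjusted p = 0.000253). Without Epi replicate 4 the difference of exEndo 1 was -0.99, inside the fold threshold. In the E9.5 gut Smo was 25.9 to 48.7 TPM in the 16 libraries, with no difference between regions beyond 0.05 in either lineage. Across exGut and emGut it differed by -0.27 (SE 0.132, adjusted p = 0.309). YsEndo was 3.17 to 5.24 TPM, below exGut by 2.71 (SE 0.181, adjusted p = 1.60e-08) and below exEndo 2 with a difference of -1.32 (SE 0.186, adjusted p = 4.97e-05). The last difference narrowed to -0.96 with median-ratio rescaling and -0.83 with quantile normalization. At E13.5 Smo was 32.0, 26.7 and 18.4 TPM in emSI, 31.0, 35.8 and 6.54 TPM in exSI, 15.7, 27.8 and 26.1 TPM in emColon and 8.34, 43.7 and 34.4 TPM in exColon, with 1 low library in each extraembryonic group.

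Hhip (chr8:79965851-80058006, minus strand) was listed at 0 in 20 of 44 libraries and above 1 TPM in 8. It was 0.893, 1.41, 1.47 and 2.48 TPM in emHindgut, 1.97, 1.12, 0.192 and 0.0590 TPM in exHindgut, at most 1.02 TPM in emMidgut and at most 0.122 TPM in exMidgut. YsEndo, exSI, emColon and exColon were listed at 0 throughout. The highest values were 8.94 and 4.17 TPM in emSI replicates 1 and 2, while emSI replicate 3 was listed at 0. The difference between emColon and emHindgut was -1.32, and -0.07 with quantile normalization. It is given with no p, since Hhip entered that comparison only through 3 emHindgut libraries, and it was not called in any other comparison.

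**Figure D3:**
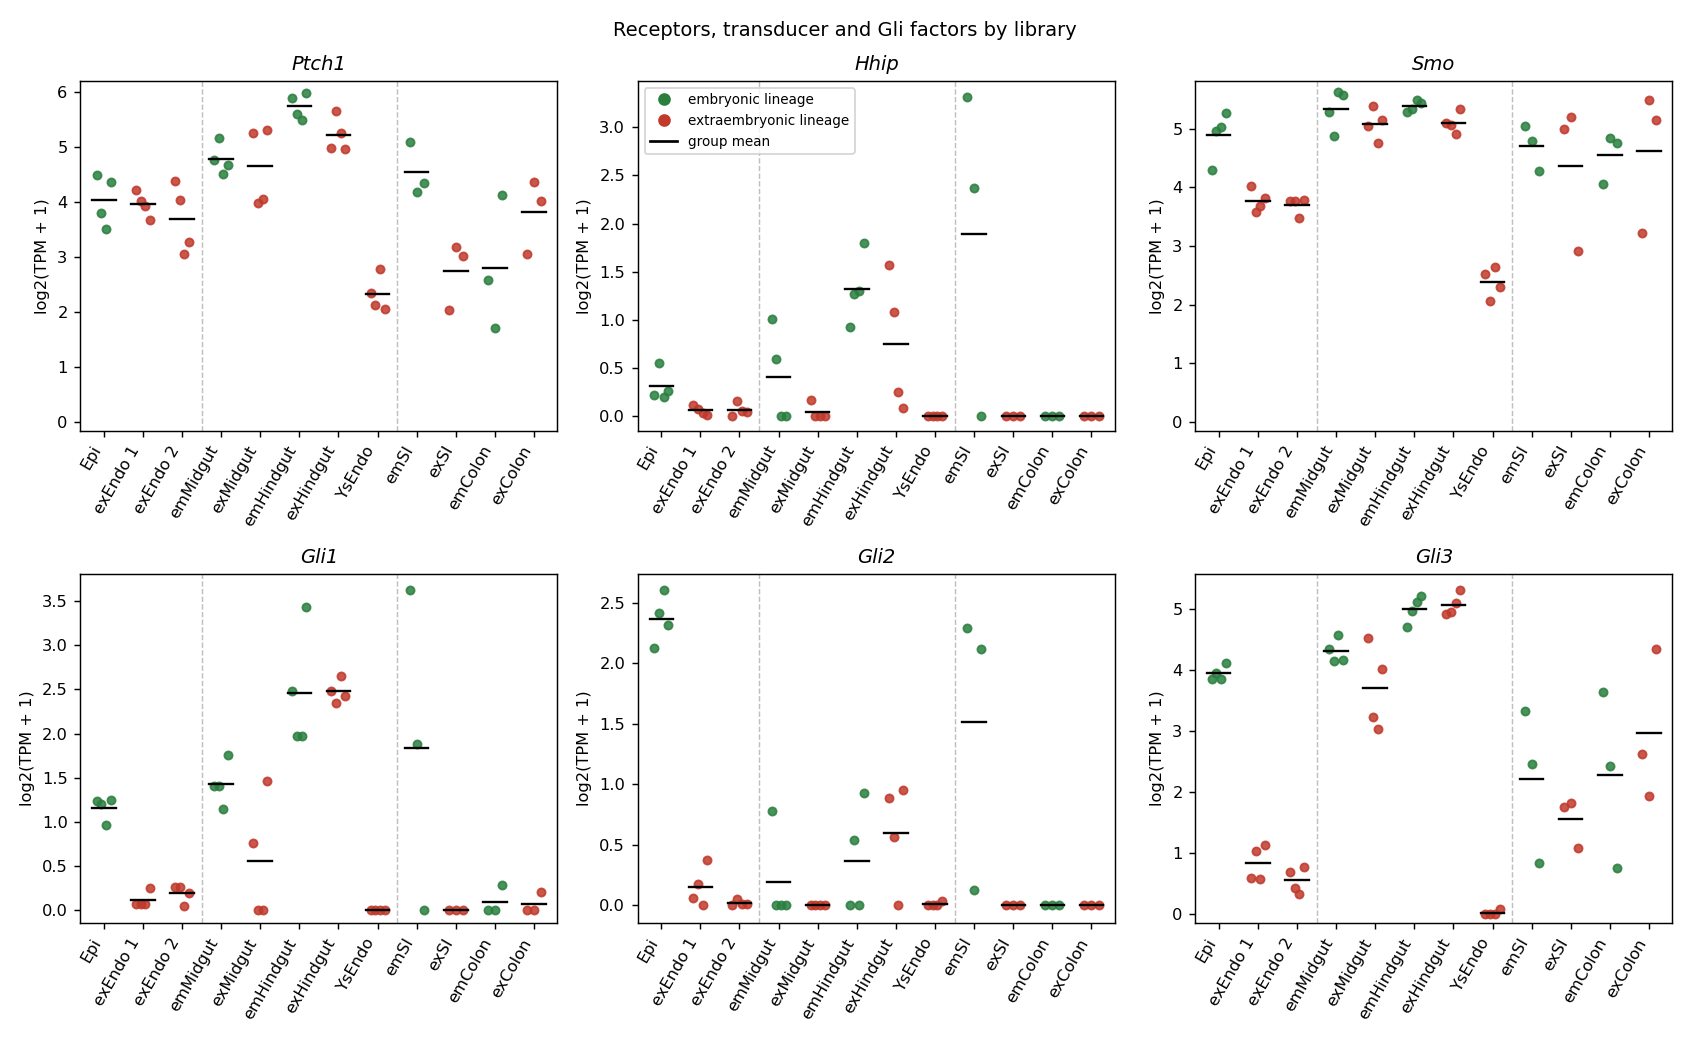
Ptch1, Hhip, Smo, Gli1, Gli2 and Gli3 in each library, as log2(TPM + 1) on the y axis (its range differs between panels), with the 12 groups on the x axis. Points are libraries, coloured by lineage, and bars are group means. Ptch1 and Smo are present everywhere and have their lowest group means in YsEndo, though single emColon and exSI libraries held less Ptch1. Gli3 is high in Epi and the E9.5 gut, Gli2 is highest in Epi, and Gli1 and Hhip reach their highest single values in emSI.

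Gli3 was the predominant Gli RNA in the groups of the early embryo and the E9.5 gut. Its gene lies at chr13:15463235-15730026 on the plus strand. It lay between 13.4 and 16.3 TPM in the 4 Epi libraries, 0.510, 1.05, 0.496 and 1.20 TPM in exEndo 1 and 0.617, 0.345, 0.262 and 0.715 TPM in exEndo 2. The extraembryonic libraries lay wholly below Epi, with a difference of -3.10 for exEndo 1 (SE 0.182, adjusted p = 9.55e-08) and -3.38 for exEndo 2, where Gli3 entered only through Epi. In the E9.5 gut Gli3 was 19.4, 16.7, 22.9 and 16.9 TPM in emMidgut and 22.0, 8.41, 7.22 and 15.2 TPM in exMidgut. It was 25.0, 30.2, 33.4 and 35.9 TPM in emHindgut and 29.1, 30.0, 33.4 and 38.7 TPM in exHindgut. In YsEndo it was listed at 0 in 3 libraries and at 0.0625 TPM in replicate 4.

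The hindgut values of Gli3 lay above the midgut values in each lineage. The difference was called in the extraembryonic lineage (1.37, SE 0.325, adjusted p = 0.00994) and was within the fold threshold in the embryonic lineage (0.69, SE 0.207, adjusted p = 0.0248). The difference between these effects was 0.68 and was not called (SE 0.386, adjusted p = 0.752). Gli3 was higher in exGut than in exEndo 1 by 3.55 (SE 0.422, adjusted p = 9.30e-06). Its difference from YsEndo was 4.37, with entry through exGut alone. At E13.5 it was lower and scattered, at 9.05, 4.53 and 0.779 TPM in emSI, 2.38, 2.52 and 1.13 TPM in exSI, 11.5, 4.375 and 0.698 TPM in emColon and 5.14, 2.82 and 19.4 TPM in exColon. It fell by 2.72 from emHindgut to emColon (SE 0.623, adjusted p = 0.0136) and by 2.10 from emMidgut to emSI (SE 0.547, adjusted p = 0.0189). The latter call was lost without emMidgut replicate 1 or 3 (adjusted p up to 0.0591), with no filter on low values and with quantile normalization. As a share of the summed Gli1, Gli2 and Gli3 TPM, Gli3 made up 69.1 to 75.3% in Epi and 77.0 to 100% in the E9.5 gut. At E13.5 it made up 19.0 to 62.0% in emSI, 76.1 to 100% in emColon, 99.2 to 100% in exColon and 100% in exSI. The summed TPM behind these shares was 1.126 to 2.517 in exSI and 0.916 to 11.47 in emColon. It was 2.823 to 19.51 in exColon and 4.105 to 24.32 in emSI. A share of 100% can thus rest on low values, with the other Gli genes merely listed at 0.

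Gli2 (chr1:118834132-119053619, minus strand) was mainly a transcript of the epiblast, at 3.35, 4.32, 5.10 and 3.97 TPM. It was at most 0.292 TPM in exEndo 1 and 0.0343 TPM in exEndo 2, with differences from Epi of -2.21 and -2.35. It did not exceed 0.935 TPM in any E9.5 library, was listed at 0 in all exMidgut libraries, and differed by -2.08 between emGut and Epi. In each of these comparisons it passed the filter only through Epi, so no p is given. At E13.5 it was 3.895, 0.0932 and 3.33 TPM in emSI and listed at 0 in the other 9 libraries.

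Gli1, the direct target and activator (chr10:127329882-127341974, minus strand), was highest at E9.5 in the hindgut. It was 4.57, 2.91, 2.94 and 9.83 TPM in emHindgut and 4.58, 4.08, 5.285 and 4.38 TPM in exHindgut. In emMidgut it was 1.64, 1.64, 1.21 and 2.39 TPM, and in exMidgut 0.691 and 1.77 TPM in replicates 1 and 4 and listed at 0 in replicates 2 and 3, the same libraries that were low in Ptch1. Epi held 0.945 to 1.37 TPM, the E6.5 extraembryonic groups at most 0.203 TPM, and YsEndo was listed at 0 throughout. Gli1 was higher in exHindgut than in exMidgut by 1.92 (SE 0.463, adjusted p = 0.0106). The embryonic difference was 1.04 with no overlap and was not called (SE 0.413, adjusted p = 0.0827). The difference between exGut and YsEndo was 1.52 and that between exGut and exEndo 1 was 1.40, both with entry through exGut alone. Of the 12 fits that leave out a library, the Gli1 call was lost in 4 against YsEndo and in 9 against exEndo 1. At E13.5 Gli1 was 11.4, 2.69 and 0 TPM in emSI, 0.219 TPM in emColon replicate 3, 0.148 TPM in exColon replicate 3 and listed at 0 in the other 7 libraries. The difference between emColon and emHindgut was -2.37, with entry through emHindgut alone.

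RNA of mesenchyme markers was highest in the emSI libraries with the highest Gli1 and Hhip, but did not go with these genes in every group. The summed TPM of 8 mesenchyme markers was 392.5 in emSI replicate 1, 100.4 in replicate 2 and 1.751 in replicate 3, the same order as Gli1 and Hhip in these libraries. It was 6.197 to 11.71 in emColon, 0.169 to 13.1 in exColon and at most 1.05 in exSI. At E9.5 it was 47.6 to 74.7 in emHindgut, 25.6 to 34.8 in exHindgut, 7.57 to 22.2 in emMidgut and 4.97 to 19.6 in exMidgut. In emSI replicate 1 the list had 2 of 8 genes at 0, in replicate 2 it had 3 and in replicate 3 it had 7. Gli2 does not follow this order, since emSI replicate 3 held 3.33 TPM. The exEndo 2 libraries had a sum of 45.8 to 88.8 TPM with Gli1 at most 0.203 and Hhip at most 0.112 TPM. That sum rests on few genes, since 2 to 3 of the 8 were above 1 TPM in each exEndo 2 library. In emHindgut 6 to 7 were above 1 TPM, and in emSI 1 to 5. The emHindgut sums all lay above the exHindgut sums, while Gli1 was 5.06 ± 3.27 TPM in emHindgut and 4.58 ± 0.510 TPM in exHindgut (SD, n = 4). The part of mesenchymal RNA in the values of Gli1, Hhip and Ptch1 was not tested, and in sorted pools fewer cells of a type and less RNA per cell cannot be told apart. Reads of Gli1 also cannot be told apart by strand from those of Arhgap9 and Gm47200, which overlap it on the other strand, nor those of Shh from 9530036O11Rik and Gm26894, because the library kit does not mark strand.

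**Figure D4:**
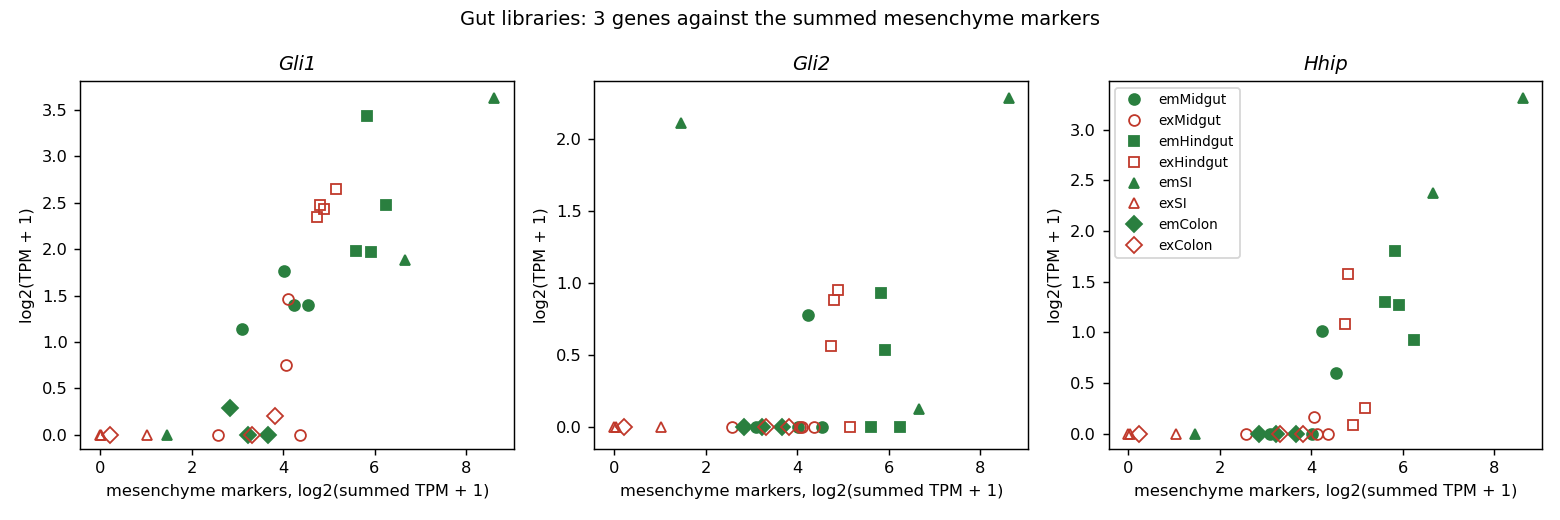
Gli1, Gli2 and Hhip in the 28 gut libraries of E9.5 and E13.5, as log2(TPM + 1) on the y axis, against the summed TPM of the 8 mesenchyme markers, as log2(summed TPM + 1), on the x axis. Filled green symbols are embryonic and open red symbols extraembryonic libraries, with a symbol for each region. The emSI library with the highest marker sum (392.5 TPM) has the highest Gli1 and Hhip, and the emSI library at 1.751 TPM is listed at 0 for both but not for Gli2.

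Groups ordered by median have neighbours of like level, so overlap of neighbours is likely and says nothing of groups further apart. For Gli1, Gli2 and Hhip some of these neighbours were listed at 0 throughout. With the 12 groups ordered by median, neighbouring groups overlapped in all 11 steps for Ptch1, Gli1 and Gli2, in 10 of 11 for Shh, Ihh and Hhip, in 9 for Smo and in 8 for Gli3. For Shh the order ran from emMidgut (median 146.3 TPM) to exSI (29.8 TPM), with the only gap between exSI and exEndo 1 (0.196 TPM). For Ihh it ran from exSI (43.7 TPM) to emHindgut (3.25 TPM), with the only gap above Epi (0.0655 TPM). For Smo the gaps lay between emColon (26.1 TPM) and exEndo 2 (12.6 TPM) and between exEndo 1 (12.45 TPM) and YsEndo (4.335 TPM). For Gli3 they lay below exHindgut (31.7 TPM), below emMidgut (18.2 TPM) and above YsEndo, whose median was 0.

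**Figure D5:**
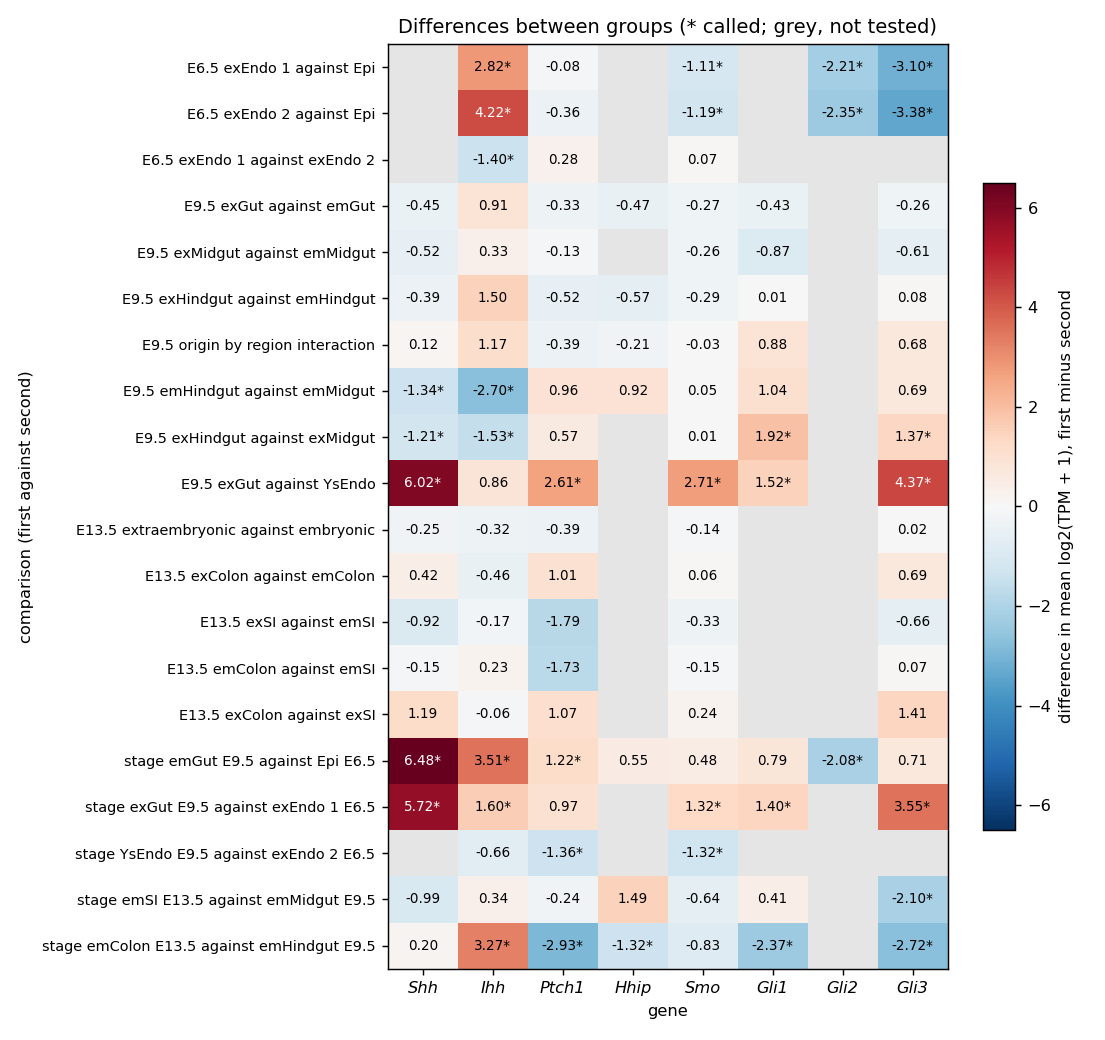
Difference in mean log2(TPM + 1) for the 8 genes (x axis) in 20 comparisons (y axis), first group minus second; the interaction row gives the hindgut difference minus the midgut difference. Red is higher and blue lower in the first group, stars mark calls, among them those of genes above 1 TPM in 1 of the groups alone, and grey cells were not tested because of low values. No star stands in the rows that compare the lineages at E9.5 or E13.5, where at most 3.07% of all genes were called. At such shares the lack of a call is no result about the 8 genes. The rows for region at E9.5, yolk sac and stage hold calls of ligands, receptors and Gli factors, beside 11.3 to 42.4% of all genes.

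The other genes of the pathway were counted by role in the comparisons named above. Among genes for ligand processing and release (6 genes), 2 were tested between exEndo 1 and Epi, where 33.4% of all genes were called. Hhat, which acylates the ligands, was the single call of the 2, with a difference of 1.00 and entry through exEndo 1 alone. In exGut against YsEndo Hhat was higher by 2.33 (adjusted p = 1.62e-05). Scube3, a secreted ligand chaperone, differed by 3.23 and Disp1, which exports the ligands, by 1.38, and both entered through exGut alone. These 3 were all of the list that were tested there, beside 42.4% of all genes called. Scube2, chosen after its values were seen, was 24.3 ± 4.17 TPM in exEndo 2 and 2.02 ± 0.963 TPM in exEndo 1 (SD, n = 4), lower in exEndo 1 with a difference of -3.12 (adjusted p = 2.06e-05), as Ihh was. Of the 6 genes in exGut against emGut, 4 were tested and 0 called, beside 2.35% of all genes. At E13.5 3 were tested and 0 called in the comparison over both organs, beside 0.625% of all genes. At such shares 0 calls are no result about this list.

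Of the co-receptors and other ligand-binding receptors, Gas1, Cdon and Lrp2 were tested between exEndo 1 and Epi. Gas1, a co-receptor, differed by -2.80 with entry through Epi alone, whereas Lrp2, an endocytic receptor of visceral endoderm that can bind Shh, was higher by 1.72 (adjusted p = 3.58e-05). Cdon, another co-receptor, differed by -0.31 and was not called (adjusted p = 0.198). Lrp2 was lower in exGut than in YsEndo with a difference of -4.02 (adjusted p = 2.18e-07), and Cdon was higher by 1.21 (adjusted p = 0.00509). Gas1 differed by 2.52, with entry through exGut alone. None of them was called between exGut and emGut (2.35% of all genes called), nor at E13.5 over both organs (0.625%).

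Among 13 genes of transduction and the cilium, 12 were tested between exEndo 1 and Epi, with 1 called higher and 3 lower, beside 33.4% of all genes called, a share near the background that is no result about this list. Evc2, which with Evc forms a ciliary complex that relays the signal from Smo, was lower with a difference of -1.63 (adjusted p = 0.000142), and Evc differed by -2.25 with entry through Epi alone. Prkaca, a catalytic subunit of protein kinase A, was higher by 1.11 (adjusted p = 0.000111). Between exGut and YsEndo, 5 of 13 were higher and 0 lower, beside 42.4% of all genes called, which is likewise no result about this list. The largest differences were those of Gsk3b (2.24, adjusted p = 5.09e-09), Spop (1.95, adjusted p = 2.63e-08) and the ciliary motor subunit Kif3a (1.89, adjusted p = 4.44e-06). The list median was 0.94, beside 0.59 over all genes. Of the 13 genes, 0 were called between exGut and emGut (2.35% of all genes) and 0 at E13.5 over both organs (0.625%).

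Of the 5 mesenchymal response genes 1 or 2 passed the filter in most comparisons, chiefly Bmp4, a signalling factor that gut mesenchyme expresses in response to Hedgehog. Bmp4 was higher in exGut than in YsEndo by 5.64 (adjusted p = 1.49e-06), the single call of 2 tested, beside 42.4% of all genes. The gene was not called in exEndo 1 against Epi (0.39, 1 tested, 33.4% of all genes called). In exGut against emGut 2 genes were tested and 0 called, beside 2.35% of all genes. The hindgut values of Bmp4 and Foxa1 that follow were chosen after they were seen. Bmp4 was 169 ± 40.6 TPM in emHindgut and 151 ± 33.4 TPM in exHindgut against 10.9 ± 8.53 TPM in emMidgut and 37.1 ± 18.7 TPM in exMidgut (SD, n = 4), higher in the hindgut by 4.21 (adjusted p = 1.31e-05) and 2.13 (adjusted p = 0.000435). Foxf1, Foxf2 and Foxl1 had their highest group means in emSI (13.6 ± 15.4, 6.37 ± 7.66 and 5.49 ± 6.05 TPM, SD, n = 3), where the spread exceeds or nears the mean, and exSI was listed at 0 for all 3. Of the endoderm factors upstream of Shh, Foxa1 was higher in exGut than in YsEndo (4.54, adjusted p = 3.01e-06), and between exEndo 1 and Epi it differed by 3.25 with entry through exEndo 1 alone. Foxa2 was higher in exEndo 1 than in Epi (2.06, adjusted p = 0.0458). In the hindgut Foxa1 was lower than in the midgut with a difference of -2.59 (adjusted p = 2.20e-06) in the embryonic and -1.93 (adjusted p = 1.48e-05) in the extraembryonic lineage. Foxa2 was not called there, with differences of 0.23 (adjusted p = 0.379) and -0.37 (adjusted p = 0.319). At E13.5 neither list gave a call over both organs (1 and 2 genes tested, 0.625% of all genes called), and Bmp4 differed by -3.22 (SE 0.849, adjusted p = 0.103).

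Over the 12 group means of log2(TPM + 1), the genes whose pattern was most like each member were named from about 12475 genes by Pearson correlation, as a description over groups that share all their libraries. For Shh they were Gm1673, Cirbp and Cd1d1 (r = 0.983, 0.983 and 0.982), and for Ihh Atp11a, 2510002D24Rik and Ocln (0.970, 0.954 and 0.950). For Ptch1 they were Snx11, Ccni and Lins1 (0.939, 0.935 and 0.932) and for Smo Chd7, Llgl1 and Fscn1 (0.994, 0.981 and 0.979). For Gli3 they were Igf1r, Ptk7 and Soga1 (0.973, 0.969 and 0.968), for Gli2 Etv1, Gria4 and Nfasc (0.974, 0.972 and 0.915) and for Gli1 Ncam1, Ifitm5 and Gas1 (0.962, 0.948 and 0.945). For Hhip they were Snai2, Col1a1 and Col1a2 (0.978, 0.972 and 0.895), of which Col1a1 and Col1a2 are on the list of mesenchyme markers.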

How the data were processed

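RNA was profiled by low-input poly(A) sequencing in 44 libraries. The deposited values are TPM, FPKM and coverage per gene, which the authors obtained with StringTie 2.0.6 on GENCODE VM23 after adapter removal (cutadapt 4.1) and alignment by STAR 2.7.9a to mm10 plus both reporter genes. TPM was used for all gene values. Coverage and FPKM served only to derive the aligned bases, from their most frequent ratio over genes. Gene types came from GENCODE vM21 (32235 of 32287 identifiers matched).

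Groups followed the labels. log2(TPM + 1) was compared with limma 3.58.1 (lmFit, eBayes with trend; R 4.3.3; two-sided; Benjamini-Hochberg within a comparison) on protein-coding genes outside the Y chromosome above 1 TPM in at least 4 libraries (3 where E13.5 enters), with only the compared groups in the fit and the organ as a covariate over both E13.5 organs. The fit was tested on simulated data. Python 3.11.15, NumPy 2.4.6, pandas 2.3.3 and matplotlib 3.10.9 were used for other values.

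The 8 genes were named throughout. Of the other role lists, up to 3 called genes with the largest change were named in 4 comparisons, and the genes most alike were the 3 with the highest correlation. Members and lists were chosen with earlier results of these data known. Alternatives were a pseudocount of 0.1, no filter, median-ratio rescaling, quantile normalization, a replicate block, a region covariate, no organ covariate, and leaving out each library; leaving out emSI replicates 1 and 2 together was chosen after seeing the data. Same-numbered libraries deviated together only for exEndo 1 with exEndo 2 (correlations of deviations 0.167 to 0.402, each over 0.1), taken from the data; this pairs them by number. The labels state no batch. 1 gene of the receptor list is not reported here.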

Additional observations from a re-analysis of the deposited data

Results flagged for a closer look

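In 38 groups of 4 libraries with a mean of at least 1 TPM, single libraries were checked for a gap to the rest of their group. Smo in exEndo 2 replicate 3 was 10.18 TPM, against 12.59 to 12.80 TPM in the other 3 libraries. Gli1 in Epi replicate 3 was 0.945 TPM, against 1.294 to 1.374 TPM. In both the lowest library stood apart from the others on the log2(TPM + 1) scale. Chance alone sets a library apart in about 1 in 20 such groups, and it was seen here in 2 of 38. Groups of 3 at E13.5 were not checked. No member differed between the gut regions in its origin effect by the interaction test.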

How the results depend on the processing

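The counts of members called, which include genes that entered a comparison through 1 side alone, were most sensitive in the comparisons across stages. With no filter on low values, 2 members were called in exHindgut against exMidgut in place of 4, and 0 in emSI against emMidgut in place of 1, where more genes enter the adjustment. With median-ratio rescaling, 1 was called in YsEndo against exEndo 2 in place of 2. With quantile normalization, 0 were called there, 0 in emSI against emMidgut, and 3 in emColon against emHindgut in place of 5. Without emSI replicates 1 and 2, 2 were called in emSI against emMidgut (Gli3 and Smo), and the lone emSI library is then assumed to vary like the emMidgut libraries. The cause of these changes was not tested. Median-ratio rescaling moved the median of all genes by over 0.1 in exEndo 1 against Epi, exGut against YsEndo, exColon against emColon, exColon against exSI and all 5 stage comparisons (from 0.23 to 0.05 in exColon against emColon, from -0.41 to -0.03 in YsEndo against exEndo 2, from -0.54 to -0.22 in emColon against emHindgut). Counts over all genes moved by over 1.5 times with no filter in exMidgut against emMidgut (321 to 173), exHindgut against emHindgut (378 to 223), the interaction (13 to 8) and 4 E13.5 comparisons (84 to 8 in exSI against emSI, 30 to 8 in exColon against emColon, 53 to 3 in emColon against emSI, 79 to 2 in exColon against exSI). With a pseudocount of 0.1 they fell to 0 in the interaction, 10 in exColon against emColon and 11 in exColon against exSI. Without emSI replicates 1 and 2 they were 48 of 78 over both organs, 47 of 84 in exSI against emSI and 9 of 53 in emColon against emSI.

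Leaving out each library gave 2 to 3 calls in exEndo 1 against Epi (2 without Epi replicate 4) and 2 to 3 in exEndo 2 against Epi (2 without any 1 of the Epi libraries). A gene above 1 TPM in the libraries of 1 group alone cannot then reach 4 libraries and leaves the test. This holds for Ihh when an extraembryonic library is left out, for Gli2 when an Epi library is, and for Gli3 when an Epi library is left out of the comparison with exEndo 2. Smo was below the fold threshold without Epi replicate 4 (-0.99 in exEndo 1 against Epi). It gave 0 to 1 calls in exHindgut against emHindgut, 2 to 4 in exHindgut against exMidgut (2 without exMidgut replicate 4) and 0 to 3 in emSI against emMidgut (0 without emMidgut replicate 3, 2 without emMidgut replicate 4, 3 without emSI replicate 3). No called value changed sign under any alternative.

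With a replicate block, 4 members were called in each of the comparisons of exEndo 1 and exEndo 2 with Epi, 1 in exEndo 1 against exEndo 2, 2 in emHindgut against emMidgut and 4 in exHindgut against exMidgut, and it changed no call of a member in 78 tests. Over all genes it moved the interaction from 13 to 8 calls. Outside exEndo 1 with exEndo 2 the labels give the libraries only a number in common. Whether a shared number means a shared embryo or pool is not stated. The same-number correlations there ranged from -0.167 to 0.196 between exEndo 1 and Epi and from -0.01375 to 0.0798 between the E9.5 groups. Between the E13.5 groups they ranged from -0.0272 to 0.0723. Each exColon and exSI library correlated best with the embryonic library of its own number and organ, while no emColon library did so with emSI. The block was not run for the stage comparisons and exGut against YsEndo. Gene-level counting error is unknown, which limits Hhip, Gli1 and Gli2 most, since their values lie near 1 TPM or below.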
